A study of Homo sapiens with 6 samples.

Results

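The genes described here are 8 components of extracellular proteolysis: the plasminogen activators PLAU and PLAT, the activator receptor PLAUR, the matrix metalloproteases MMP1 and MMP14, and the metalloprotease inhibitors TIMP1, TIMP2 and TIMP3. They were taken by gene symbol from a table of 58735 genes, and all 8 were found once. Earlier results of these data were known when the 8 genes were chosen. The table holds polyA RNA-sequencing values of MDA-MB-231, a human cell line derived from a breast adenocarcinoma and used as a model of basal-like, invasive breast cancer. It covers 3 control libraries at 0 Gy and 3 libraries from cells given 10 Gy from a 137Cs source and taken 24 h later. All 6 libraries carry the genotype WT and names that begin with SCR, the letters the study uses for its non-targeting hairpin, and no knockdown was part of the comparison. The comparison asks which of the 8 transcripts were at another level a day after irradiation. The labels do not say whether the replicates were separate cultures, so the p-values below measure only the spread between these libraries, which may be technical.

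Urokinase (PLAU) and tissue-type plasminogen activator (PLAT) cleave the zymogen plasminogen to plasmin, a broad serine protease. Urokinase does so mainly while bound to its receptor PLAUR at the cell surface, and serpins such as protease nexin-1 (SERPINE2) inhibit both activators. Plasmin in turn can activate secreted metalloproteases such as the interstitial collagenase MMP1, while MMP14 is anchored in the cell membrane, cleaves collagen there and activates pro-MMP2 in a complex with TIMP2. The TIMPs are secreted inhibitors that bind metalloprotease active sites, and TIMP3 is held in the matrix.

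Values are FPKM, fragment counts divided by gene length and by a depth for each library. The gene length was that of all annotated exons of a gene merged, 1970 bases over 1 transcript for MMP1 and 4457 over 16 for PLAUR. The order, ranks and ratios of different genes therefore depend on that length too, and its part in them was not tested. The depth implied by the values was 0.9725 to 0.991 times the reads recovered from them in control libraries. In irradiated libraries it was 1.0278 to 1.0389 times those reads, so the deposited values already hold a scaling that differs between groups. Its source was not tested. Differences between libraries also depend on how the libraries are scaled, as given further on. The reads behind the table came to between 15643641 and 28861781 per library, and the 8 genes held between 426 and 23363 reads each in a library. All 7 listed genes that MDA-MB-231 cells express were at 1 FPKM or more on average, with a summed level of 983.6 to 1021 FPKM in control and 836.4 to 859.0 FPKM in irradiated libraries. Of the luminal markers 3 of 7 reached 1 FPKM (KRT19, at a control mean of 90.93 FPKM, GATA3 and EPCAM), while ESR1 did not pass 0.017 FPKM and PGR was at 0, and 2 of 7 fibroblast, 1 of 6 immune and 1 of 4 endothelial markers reached 1 FPKM. The fibroblast markers summed to 4.207 to 4.301 FPKM in control and 5.535 to 5.801 FPKM in irradiated libraries, and the endothelial markers to 2.155 to 2.492 and 2.824 to 3.148 FPKM. The immune markers summed to 1.57 to 2.609 and 2.095 to 3.23 FPKM, with 2 of 6 at 0 in all libraries, and the luminal markers to 91.86 to 101.7 and 78.72 to 80.42 FPKM. The part of these shifts in the results below was not tested. In bulk libraries, a change in the make-up of the cells and a change in RNA per cell cannot be told apart.

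In control cells the 8 genes spanned a range from MMP14, at 170.5 ± 8.09 FPKM (SD, n = 3), to MMP1, at 16.13 ± 0.418 FPKM. MMP14 ranked 183 among all genes of the table and MMP1 ranked 3272. PLAU, TIMP1 and TIMP2 followed MMP14 at means of 107.5, 101.9 and 100.3 FPKM, and their ranges overlapped: PLAU with TIMP1, and TIMP1 with TIMP2. TIMP3 at 54.49 FPKM, PLAUR at 48.22 FPKM and PLAT at 17.27 FPKM came next, each with a range apart from that of its neighbours. PLAT was 1.071 times the level of MMP1, the closest pair whose ranges did not overlap. Their gene lengths were 6618 bases over 12 transcripts and 1970 bases over 1, so so close an order rests on these lengths. At 10 Gy the order was MMP14, TIMP2, TIMP1, PLAU, TIMP3, PLAUR, PLAT and MMP1, and no neighbours in it overlapped. PLAU was above both TIMP1 and TIMP2 in each of the 3 control libraries and below both in each of the 3 irradiated libraries.

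**Figure D1:**
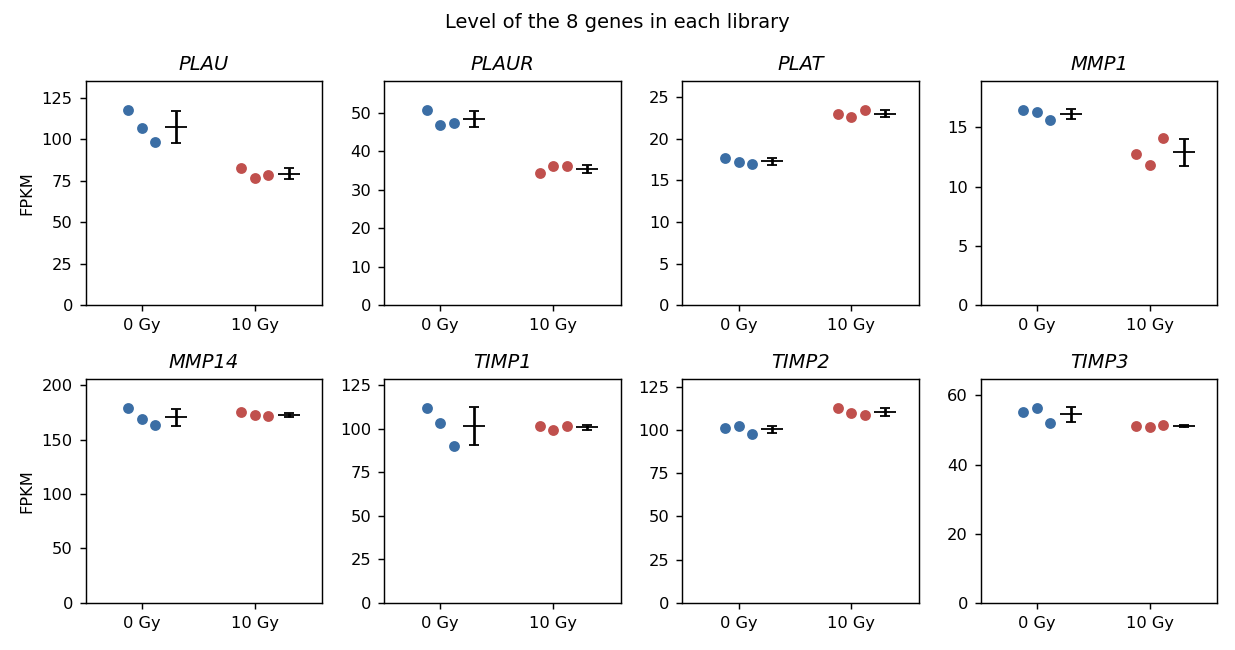
FPKM of each of the 8 genes (vertical axes from 0, 1 panel per gene) in the 3 libraries at 0 Gy (blue points) and the 3 at 10 Gy (red points), with the group mean and SD in black. PLAU, PLAUR and MMP1 lie lower at 10 Gy and PLAT and TIMP2 higher, with no overlap, while MMP14 and TIMP1 overlap between groups.

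After 10 Gy, 5 of the 8 genes changed: PLAU, PLAUR and MMP1 fell, and PLAT and TIMP2 rose. A gene was called when limma's test on log2(FPKM + 1) gave a Benjamini-Hochberg adjusted p under 0.05 over 12128 genes, those that averaged 1 FPKM or more, and all 8 genes were among these. The background share was large, as 35.6% of the genes tested were called, 11.9% as higher and 23.7% as lower. The 2 rises and 3 falls among 8 genes stand beside those shares. PLAU, PLAUR and PLAT changed by at least 1.3-fold on that scale, which 5.77% of the genes tested did while being called. In 6 of the 8 genes the groups did not overlap, against 51.9% of the genes tested. The median change of the 8 genes was -0.05 on the log2 scale, and that of all genes tested was -0.04.

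PLAU and PLAUR, the ligand and receptor of the urokinase system, fell by nearly the same factor. PLAU stood at 117.5, 106.6 and 98.27 FPKM in the control libraries and at 82.75, 76.38 and 78.63 FPKM after 10 Gy. The lowest control library was above the highest irradiated one, and the controls were the more spread group. The mean after irradiation was 0.738 of the control mean, a log2 change of -0.43 (SE 0.07, 95% interval -0.59 to -0.28, limma adjusted p = 0.0033). PLAUR, the receptor that holds urokinase at the cell surface, was at 50.6, 46.8 and 47.27 FPKM in control and at 34.21, 36.03 and 36.09 FPKM in irradiated libraries. These groups also lay apart, with a mean after irradiation of 0.735 of the control mean and a log2 change of -0.43 (SE 0.04, 95% interval -0.53 to -0.34, limma adjusted p = 0.00071). Both lost the call when each library was divided by the upper quartile of its genes above 0 (upper quartile scaling), at -0.18 for each (limma adjusted p = 0.18 for PLAU and 0.12 for PLAUR).

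The ratio of PLAU to PLAUR, which no scaling of a library can alter, was 2.322, 2.278 and 2.079 in control and 2.419, 2.12 and 2.178 in irradiated libraries. These ranges overlapped, with means of 2.226 ± 0.129 and 2.239 ± 0.159 (SD, n = 3) and a difference of 0.01 on the log2 scale (two-sided exact permutation p = 1). The levels of the receptor and its ligand differed between groups while their ratio moved by less than its spread between libraries.

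Upstream sequence of both genes is shown because they fell together, beside that of MMP14 and TIMP3, which were not called. All 4 are read from RefSeq's promoter set on GRCh38.p14, 5′ to 3′ on the gene's strand, and 5 of the 8 genes were matched in it for printing. The PLAU stretch (chr10:73911062-73911091, plus strand) and the PLAUR stretch (chr19:43670330-43670359, minus strand) are 30 bases each, since the 250 bases before both starts lie in annotated exons. MMP14 (chr14:22836335-22836556, plus strand) and TIMP3 (chr22:32801455-32801700, plus strand) are given over the bases of that window outside annotated exons. Capitals mark the AP-1 letters TGANTCA and the GC box GGGCGG or its reverse complement:
PLAU: agccGGGCGGgagagggagGGGCGGcgccg
PLAUR: tccaTGAGTCAgggccgagccagccccttc
MMP14: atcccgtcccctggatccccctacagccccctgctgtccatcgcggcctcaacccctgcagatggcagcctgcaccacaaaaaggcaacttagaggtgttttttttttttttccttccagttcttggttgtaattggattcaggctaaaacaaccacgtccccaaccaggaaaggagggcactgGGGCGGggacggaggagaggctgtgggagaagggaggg
TIMP3: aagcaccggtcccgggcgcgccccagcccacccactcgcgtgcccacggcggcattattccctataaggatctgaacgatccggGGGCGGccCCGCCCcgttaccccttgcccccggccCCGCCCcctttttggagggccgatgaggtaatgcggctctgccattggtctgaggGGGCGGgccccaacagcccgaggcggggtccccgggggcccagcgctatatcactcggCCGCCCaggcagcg

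Both strands were searched for these motifs and for TATAAA and TGACGTCA, the CRE, in the 250 bases before the start, and no matches of different motifs overlapped. The motifs were chosen after the sequences had been seen. PLAUR held the AP-1 letters once, with the first at position -186 from its start. Of 35116 promoters, 6.57% held at least 1 match anywhere in a window of that length, on either strand. PLAU held the GC box at positions -66, -51 and -40, MMP14 held it once, TIMP3 had 5 matches and TIMP1 had 2, beside 42.6% of all promoters with at least 1. The 50 bases after the TIMP1 start were not found whole in an annotated TIMP1 transcript, unlike those of PLAU, PLAUR, MMP14 and TIMP3. The TATA letters, in 10.7% of promoters, and the CRE, in 1.65%, were not in these 5 windows. A match describes letters only, and binding was not measured in these libraries.

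PLAT, the other plasminogen activator, rose where PLAU fell. It was at 17.65, 17.25 and 16.9 FPKM in control libraries and at 22.96, 22.6 and 23.41 FPKM after 10 Gy. Every irradiated library was above every control, and both groups were narrow. The mean was 1.331 times that of the controls, a log2 change of 0.39 (SE 0.03, 95% interval 0.32 to 0.47, limma adjusted p = 0.00059). The ratio of PLAU to PLAT went from 6.658, 6.178 and 5.816 in control to 3.604, 3.38 and 3.359 in irradiated libraries. Urokinase transcript remained the more abundant of the activators in all 6 libraries, and the ratio differed by -0.85 on the log2 scale with no overlap. With 3 libraries against 3 the exact permutation test cannot go below p = 0.1, the value it gave here (0.14 after adjustment over 7 ratios).

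SERPINE2, an inhibitor of both activators, fell. It went from 7.51, 6.659 and 6.964 to 5.499, 5.669 and 5.579 FPKM, a log2 change of -0.29 (SE 0.05, limma adjusted p = 0.0046). SERPINB2, another serpin that inhibits urokinase, was between 0.758 and 1.227 FPKM with a mean below 1 FPKM and was not tested.

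Plasminogen itself was at 0 FPKM for its gene PLG in all 6 libraries, so the substrate of the activators was not detected as a transcript of these cells. A list of 15 genes held PLG, inhibitors and receptors of plasminogen and its activators, and other genes such as the proteases F12 and KLKB1. Of these, 8 were tested, F12 among them, and 4 fell and 1 rose (beside 23.7% lower and 11.9% higher over all genes tested). Their median change was -0.18 against -0.04 over all genes tested. The falls included the plasminogen receptors PLGRKT, at 6.595, 7.103 and 6.463 against 4.726, 4.366 and 5.414 FPKM (log2 change -0.41, SE 0.07, limma adjusted p = 0.0054), ANXA2 (-0.22, adjusted p = 0.0088) and ENO1 (-0.25, adjusted p = 0.006), of which ANXA2 and ENO1 were slightly positive under upper quartile scaling, at 0.03 and 0.005. ANXA2 was not called under TPM, at -0.10 (adjusted p = 0.059). S100A10, the partner of ANXA2, was not called. The rise was in LRP1, the endocytic receptor that clears urokinase bound to its inhibitors, from 2.745, 3.178 and 3.1 to 5.801, 6.057 and 4.989 FPKM. Its log2 change was 0.72 (SE 0.08, 95% interval 0.55 to 0.90, limma adjusted p = 0.00096). Under upper quartile scaling SERPINE2, at -0.07, and PLGRKT, at -0.19, were no longer called.

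**Figure D2:**
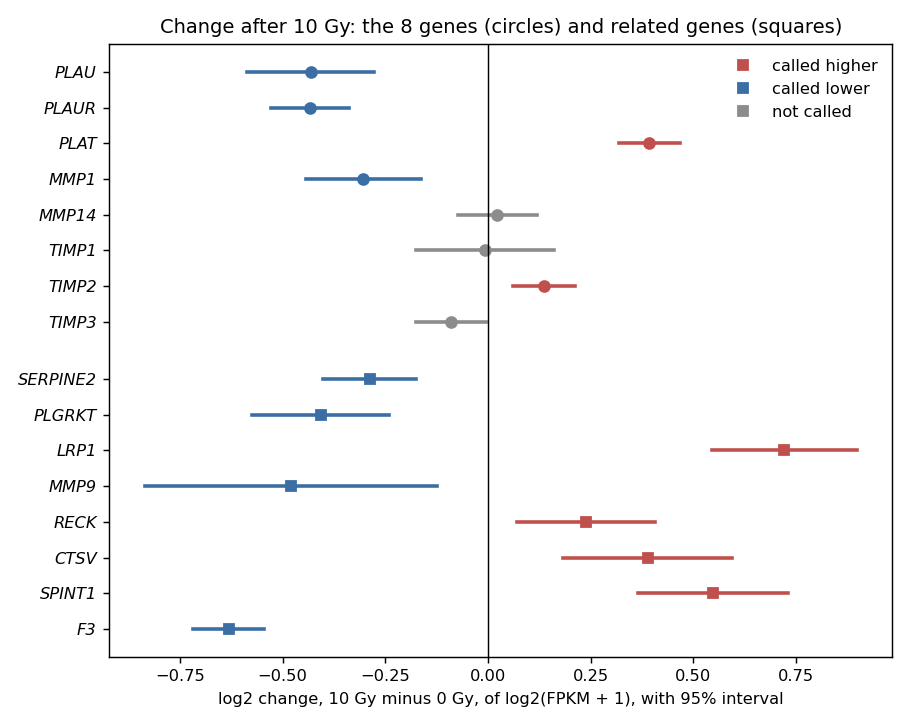
Change from 0 to 10 Gy in log2(FPKM + 1) (horizontal axis, log2 units) of the 8 genes (circles) and of related genes named in the text (squares), with 95% intervals and colour by limma's call. F3, at -0.63, and LRP1, at 0.72, lie farthest out, and the intervals of MMP14 and TIMP1 span 0.

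The partners of PLAUR at the membrane did not share 1 direction. Of 9 such genes 8 were tested, 2 fell and 2 rose (4 of 8 called, beside 35.6% of all genes tested), and the median change was -0.04. The integrin subunit ITGA3 had a change of -0.29 (limma adjusted p = 0.0012) and caveolin-1, CAV1, a change of -0.26 (adjusted p = 0.0015). MRC2, a collagen receptor that joins PLAUR and urokinase on the surface, had a change of 0.23 (adjusted p = 0.0078) and IGF2R, which binds PLAUR in endosomes, a change of 0.17 (adjusted p = 0.035). The IGF2R call was lost without control 2 or any 1 irradiated library (adjusted p from 0.057 to 0.12), and ITGA3, at -0.03, and CAV1, at -0.01, were not called under upper quartile scaling. ITGB1, ITGA5, ITGAV and EGFR were not called.

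The collagenase MMP1 fell and the membrane-type MMP14 was not called. MMP1 was at 16.45, 16.28 and 15.66 FPKM in control and at 12.78, 11.85 and 14.11 FPKM after 10 Gy, on 426 to 753 reads per library. The groups lay apart and the irradiated libraries were the more spread, with a mean of 0.801 of the control mean and a log2 change of -0.30 (SE 0.06, 95% interval -0.44 to -0.16, limma adjusted p = 0.0085). Under upper quartile scaling the change was -0.06 and not called (limma adjusted p = 0.61). MMP14 was at 179.1, 169.1 and 163.2 FPKM in control and at 175.0, 172.4 and 171.6 FPKM after 10 Gy. The irradiated values lay within the control range, and the change was 0.02 on the log2 scale (SE 0.04, 95% interval -0.07 to 0.12, limma adjusted p = 0.70). That interval bounds a change of MMP14 on this scaling. With values scaled to TPM, which sum alike in every library, MMP14 was called higher at 0.15 (adjusted p = 0.015).

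The ratio of MMP14 to MMP1 was higher in the irradiated libraries, where MMP1 was lower and MMP14 was not called. It was 10.89, 10.38 and 10.42 in control and 13.69, 14.55 and 12.16 after 10 Gy. The difference was 0.35 on the log2 scale with no overlap (exact permutation p = 0.1, adjusted 0.14). MMP1 lies in a cluster of metalloprotease genes on chromosome 11 (bases 102520508 to 102955734 of GRCh38, 435.2 kb) that holds 17 annotated genes, 9 of them metalloproteases. Only MMP1 among those 9 reached a mean of 1 FPKM, and the highest value of any other in a library was 0.187 FPKM, of the stromelysin MMP3. Over all 6 libraries MMP1 had 3633 reads, MMP3 had 31 and the collagenase MMP13 had 14.

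The rest of the metalloprotease family was near or below the limit of the test. Of 21 further MMP genes 3 were tested, and MMP26 and MMP27 were at 0 in all libraries. MMP2, the gelatinase that MMP14 activates, was at 0 to 0.013 FPKM, and MMP10 at 0 to 0.031 FPKM. MMP9, the other gelatinase, was at 1.987, 1.003 and 1.917 FPKM in control and 0.888, 0.844 and 0.850 FPKM after 10 Gy, with a log2 change of -0.48 (SE 0.15, limma adjusted p = 0.044). Control library 2 was close to the irradiated ones, and the call was lost on leaving out any library but control 2 (changes of -0.49 to -0.38, adjusted p from 0.1 to 0.12), and under TPM (adjusted p = 0.066). MMP15 and MMP19 were tested and not called. The median over the 3 tested genes was 0.02.

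**Figure D3:**
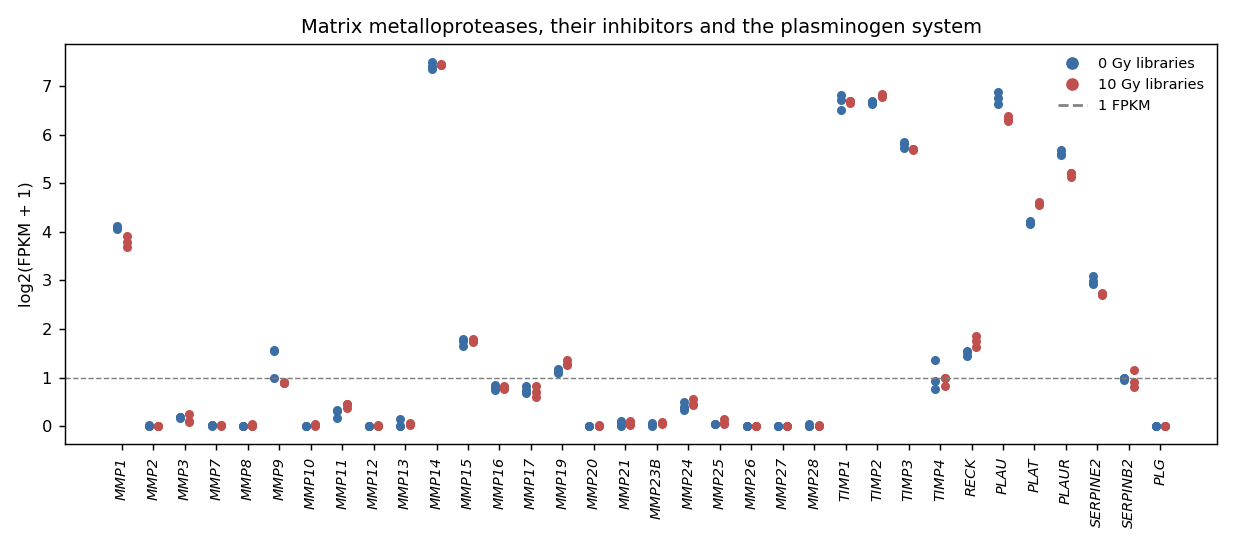
Level of metalloproteases, their inhibitors and plasminogen-system genes as log2(FPKM + 1) (vertical axis) in each library at 0 Gy (blue) and 10 Gy (red), with 1 FPKM dashed. Among the MMP genes shown MMP14 is the highest and MMP1 follows, while most other MMP genes lie under the line and PLG is at 0.

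The 3 inhibitors differed from one another. TIMP2, which also takes part in pro-MMP2 activation by MMP14, rose from 100.9, 102.0 and 97.89 FPKM to 112.7, 109.7 and 108.6 FPKM. The groups did not overlap, but the step was small, 1.10 times the control mean and 0.14 on the log2 scale (SE 0.03, 95% interval 0.06 to 0.21, limma adjusted p = 0.016). The call was lost without the first irradiated library, at 0.12 (adjusted p = 0.074), and without the second, at 0.14 (adjusted p = 0.057). TIMP1 was at 112.0, 103.3 and 90.36 FPKM in control and 101.9, 99.29 and 101.8 FPKM after 10 Gy. The control libraries spanned a 1.24-fold range around the irradiated ones, and the change was -0.01 (SE 0.07, 95% interval -0.18 to 0.16, limma adjusted p = 0.95).

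TIMP3, the matrix-bound inhibitor, was at 55.15, 56.34 and 51.97 FPKM in control and 51.19, 50.8 and 51.35 FPKM after 10 Gy. The groups lay apart by less than 1 FPKM, and the change of -0.09 (SE 0.04, 95% interval -0.18 to -0.01) was not called by limma (adjusted p = 0.093). Without control library 3 it was called, at -0.12 (adjusted p = 0.034). The sign of the TIMP1 and TIMP3 changes depended on the scaling, since both were positive under TPM, at 0.12 and 0.04, and under upper quartile scaling, at 0.25 and 0.16. TIMP4 was at 0.710 to 1.591 FPKM and was not tested. RECK, a membrane-anchored metalloprotease inhibitor, was at 1.916, 1.733 and 1.871 FPKM in control and 2.606, 2.365 and 2.101 FPKM after 10 Gy, a log2 change of 0.24 (SE 0.07, limma adjusted p = 0.037). Leaving out any library but the third irradiated one took its adjusted p over 0.05, to between 0.056 and 0.12.

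Ratios of protease to inhibitor within a library do not depend on how that library is scaled, though their size still depends on the gene lengths. MMP1 to TIMP1 was 0.159 ± 0.0133 in control and 0.128 ± 0.00985 after 10 Gy (SD, n = 3), a difference of -0.32 on the log2 scale, and MMP14 to TIMP2 was 1.70 ± 0.0659 and 1.568 ± 0.0140, a difference of -0.12. Neither pair of groups overlapped. TIMP2 to TIMP3 went from 1.841 ± 0.0377 to 2.159 ± 0.0438, a difference of 0.23 without overlap, while TIMP1 to TIMP2 was 1.015 ± 0.0935 and 0.916 ± 0.0194 with overlapping groups (exact permutation p = 0.2, adjusted 0.233). The first 3 of these gave an exact permutation p of 0.1, the lowest that 3 libraries against 3 allow, and 0.14 after adjustment over the 7 ratios. In 5 of the 7 ratios the groups did not overlap, beside 51.9% of single genes tested. The share over pairs of genes was not computed, and the 7 ratios reuse the same genes, so they are not separate results.

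**Figure D4:**
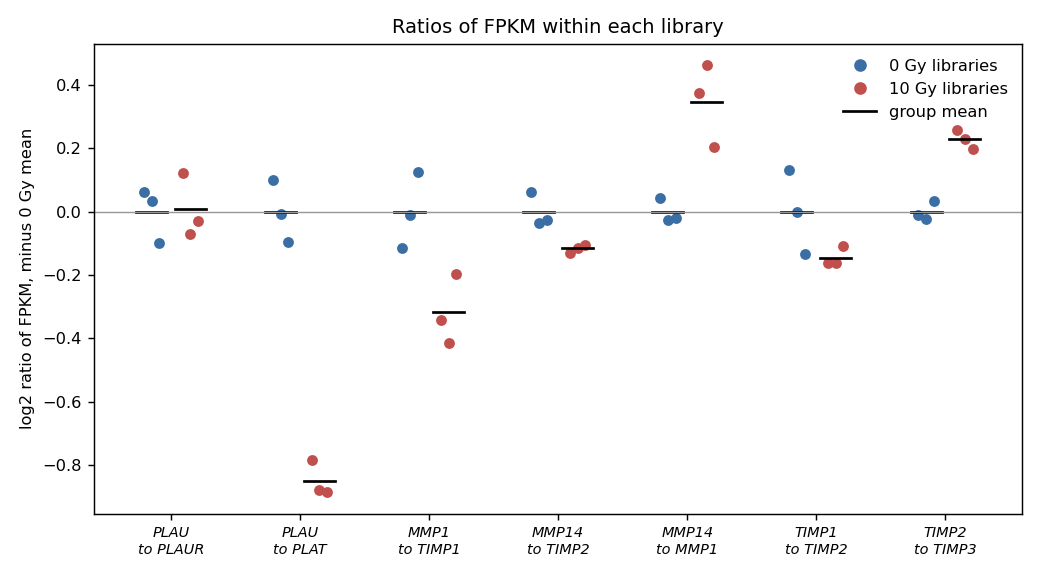
Ratio of FPKM of a pair of genes within each library, as log2 minus the mean of the 0 Gy libraries (vertical axis, log2 units), for 7 pairs, with blue points for 0 Gy, red points for 10 Gy and a bar for each group mean. PLAU to PLAT lies lowest at 10 Gy, at -0.85, MMP14 to MMP1 highest, at 0.35, and PLAU to PLAUR stays at 0.01.

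Among 26 ADAM and ADAMTS genes 10 were tested, 2 rose and 2 fell, and the median change was -0.05. The share called, 40.0%, was near the 35.6% of all genes tested. The sheddase ADAM10 had a change of 0.12 (limma adjusted p = 0.048), ADAM9 of -0.10 (adjusted p = 0.032), ADAMTS15 of 0.22 (adjusted p = 0.013) and ADAMTS12 of -0.16 (adjusted p = 0.035), while the sheddase ADAM17 was not called. The ADAM10 call was lost without any 1 library and the other 3 without certain single libraries, with adjusted p up to 0.15 for ADAM10, 0.11 for ADAM9 and ADAMTS12, and 0.053 for ADAMTS15. ADAM9, at 0.03 under TPM and 0.15 under upper quartile scaling, and ADAMTS12, at 0.06 under the latter, also changed sign. ADAMTS12 was not called under TPM either, at -0.05 (adjusted p = 0.48). Of 23 genes for cathepsins, serine proteases, protease inhibitors and tissue factor 17 were tested, 2 rose and 5 fell (41.2% called, beside 35.6% of all genes tested), and the median was -0.05. F3, tissue factor, the cofactor that starts coagulation, went from 109.3, 110.4 and 107.8 to 72.05, 66.9 and 71.63 FPKM (log2 change -0.63, SE 0.04, limma adjusted p = 0.00029). The lysosomal proteases CTSD and CTSL each had a change of -0.26, CTSV, a cysteine cathepsin close to CTSL, rose from a mean of 0.826 to 1.387 FPKM (log2 change 0.39, adjusted p = 0.014), and CTSB was not called. The CTSD call was lost without irradiated library 2 or 3 (adjusted p of 0.05 and 0.054) and the CTSV call without irradiated library 3 (0.05). Without a filter on low genes neither CTSD (limma adjusted p = 0.069) nor CTSV (0.063) was called. Under TPM CTSD was not called, at -0.13 (adjusted p = 0.1), and under upper quartile scaling CTSD and CTSL were not called, at -0.005 and -0.009.

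SPINT1, an inhibitor of membrane serine proteases, rose from 1.496, 1.727 and 1.499 to 2.521, 3.124 and 2.66 FPKM (log2 change 0.55, SE 0.08, limma adjusted p = 0.0027), while its relative SPINT2 had a change of -0.16 (adjusted p = 0.044), lost without any 1 irradiated library (0.092 to 0.12) and under TPM (0.52), and positive under upper quartile scaling. The cystatin CSTB had a change of -0.24 (adjusted p = 0.0023), and of 0.008 under upper quartile scaling. Of 6 further metalloprotease inhibitors and activators of MMPs 3 were tested, RECK was the 1 called, and the median was -0.03. The convertase FURIN, which activates pro-MMP14, and BSG, an inducer of MMPs, were not called. Across all 100 related genes 49 were tested, 14 fell and 8 rose, 44.9% of those tested against 35.6% of all genes, and the median was -0.05 against -0.04. Of these 49 genes 6 were called and passed 1.3-fold, beside 5.77% of all genes tested: PLGRKT, LRP1, MMP9, CTSV, SPINT1 and F3. Of the 22 related genes called, 12 kept the call whichever library was left out, and 4 of them kept it under every alternative in which they were tested: LRP1, MRC2, SPINT1 and F3.

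The direction of calls over the whole table moved with the scaling of the libraries, and this touches each small change above. The deposited values summed to 269611 to 278380 FPKM in control and 246920 to 254918 FPKM in irradiated libraries, and 22169 to 23975 genes against 24876 to 26496 were above 0. As deposited, 33.4% of calls were higher, beside 74.5% under TPM, 97.0% under upper quartile scaling and 35.0% with median-of-ratios factors. Those factors were 1 to 1.007, so that scaling hardly altered the deposited values. TPM moved the median of all genes by 0.11 and upper quartile scaling by 0.22 on the log2 scale. A scaling moves all genes by nearly the same amount, so changes relative to the median of all genes move little by construction and are given as a description. On that scale PLAU was at -0.39 as deposited, -0.37 under TPM and -0.35 under upper quartile scaling, and PLAUR at -0.40, -0.38 and -0.36. PLAT was at 0.43, 0.45 and 0.46, MMP1 at -0.26, -0.25 and -0.24, and TIMP2 at 0.18, 0.20 and 0.21. MMP14 was at 0.06, 0.08 and 0.10, TIMP1 at 0.03, 0.05 and 0.07, and TIMP3 at -0.05, -0.03 and -0.01.

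**Figure D5:**
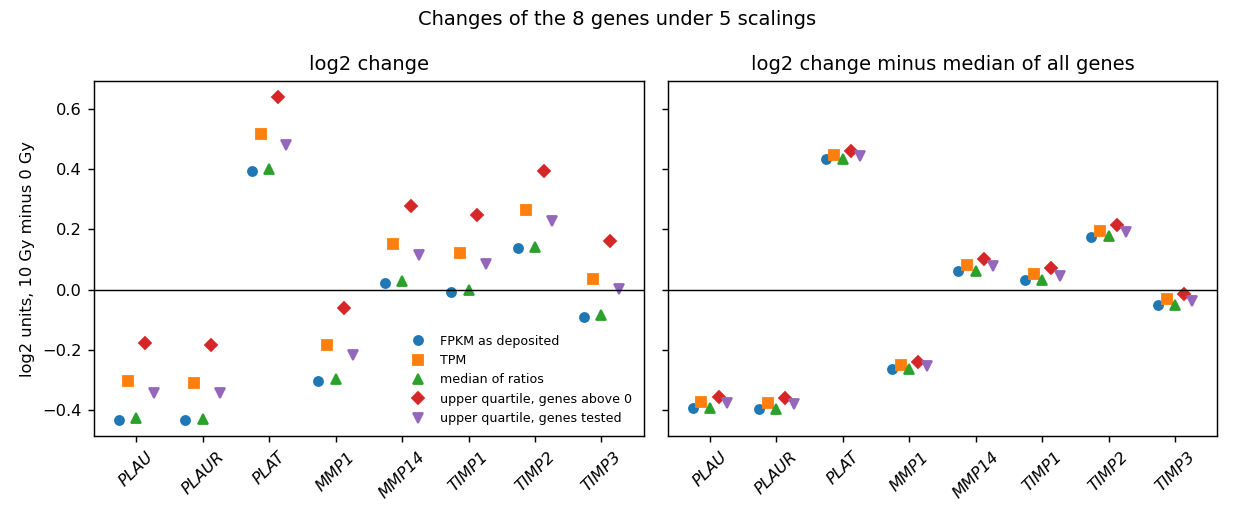
Change of the 8 genes from 0 to 10 Gy (vertical axes, log2 units) under 5 scalings of the libraries (symbols), as fitted on the left and minus the median change of all genes on the right. The symbols spread on the left, where TIMP1 and TIMP3 change sign, and close up by construction on the right, where PLAT lies between 0.43 and 0.46.

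All 8 genes lie on known positions of GRCh38 that match GENCODE 29. PLAU, ENSG00000122861, spans bases 73909177 to 73917497 of chromosome 10 on the plus strand. Its antisense neighbour C10orf55 shares 916 exonic bases with it and was at 0.812 and 0.606 FPKM in control and irradiated libraries, and the strand setting of the counting is not given in the sources used here. Without it, reads on those shared bases, of 2950 exonic bases of PLAU, could not be assigned to 1 gene of the pair. PLAUR, ENSG00000011422, spans 43646095 to 43670547 of chromosome 19 on the minus strand, and RN7SL368P within it, at 0.458 and 0.364 FPKM, shares no exonic base. MMP1, ENSG00000196611, spans 102789920 to 102798160 of chromosome 11 on the minus strand. The antisense pseudogene WTAPP1 shares 150 exonic bases with MMP1 and was at 0.022 and 0 FPKM.

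MMP14, ENSG00000157227, lies at 22836557 to 22849027 of chromosome 14 and TIMP1, ENSG00000102265, at 47582313 to 47586789 of chromosome X, both on the plus strand. TIMP1 lies inside SYN1 on the other strand, which was at 0.072 and 0.063 FPKM and shares no exonic base with it. TIMP2, ENSG00000035862, spans 78852977 to 78925387 of chromosome 17 on the minus strand. CEP295NL on the same strand shares 198 exonic bases with TIMP2 and was at 0.184 and 0.390 FPKM, and the antisense genes AC100788.1, at 0.164 and 0.391 FPKM, and AC100788.2, at 0.094 and 0.243 FPKM, share none. The antisense gene AC022966.1 shares 367 exonic bases with TIMP2 and was at 0 FPKM in both groups. TIMP3, ENSG00000100234, lies at 32801701 to 32863043 of chromosome 22 on the plus strand, inside SYN3 on the other strand, whose mean did not pass 0.0041 FPKM in either group. PLAT is ENSG00000104368.

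The genes whose levels ran most like each of the 8 over the 6 libraries were listed among 10491 protein-coding genes by Pearson's r on log2(FPKM + 1), as a description. The 6 points fall into 2 dose groups, so a high r mostly restates the difference between them, and 845 genes passed an r of 0.95 with PLAU and 1151 with PLAUR. The closest to PLAU were MIER2, VPS26C and DDRGK1 (r of 0.998 to 0.999), and to PLAUR they were USF2, DLD and KRT10 (0.999 to 1.0). PLAT ran with PLK1, EPOR and ARL6IP1 (each 0.998) and had 419 genes over 0.95, and MMP1 ran with SMIM7, OGFOD3 and UCK1 (each 0.994). TIMP2 ran with CDA, ATP6V0A1 and UCN2 (0.992 to 0.996). The genes that were not called had fewer such neighbours: 10 over 0.95 for MMP14, led by MAP3K10, MINDY1 and TOM1, 8 for TIMP1, led by UQCC2, an entry written as a date in the table, and CDK7, and 72 for TIMP3, led by COG2, SP6 and C14orf119.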

How the data were processed

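Libraries were grouped by the treatment in the labels, as 3 control and 3 irradiated with 10 Gy. The authors deposited FPKM values per gene, made by their sequencing provider from polyA, paired-end 150 bp libraries. HISAT2 and GRCh38 are named in the submitters' processing notes, and the counting program is not given in the sources used here. Multiplying FPKM by gene length and implied depth gave whole reads for 100% of values above 0 (tolerance 0.05 reads), used for depth only.

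The groups were compared on log2(FPKM + 1) with limma 3.58.1 (R 4.3.3) for genes averaging 1 FPKM or more, with Benjamini-Hochberg adjustment. The pseudocount of 1 understates the change of low genes. For ratios within libraries, exact permutation tests (two-sided) were used. The procedure was tested on simulated data, where it made more false calls than the nominal rate. Adjusted p-values, above all those near the threshold, may therefore be too small. The counts and shares of genes called, over all genes tested as well, may be too high.

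The 8 genes, the 6 lists of related genes and the tests were chosen with earlier results of these data known. Genes were named by rule: the 8 genes, 9 fixed related genes, list genes called and past 1.3-fold, overlapping genes averaging 0.1 FPKM or more, and the 3 genes most like each of the 8. Further list genes, and the overlapping genes under 0.1 FPKM (WTAPP1, SYN1, SYN3 and AC022966.1), were named after their values were seen. A related gene is not reported here and was left out of the lists and ratios.

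The alternatives covered the pseudocount, the filter, the scaling, a replicate block and each library left out. Python 3.11.15 and matplotlib 3.10.9 drew the figures.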

Additional observations from a re-analysis of the deposited data

How the results depend on the processing

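PLAT kept direction and call under every alternative run, and PLAU, PLAUR and MMP1 under all but upper quartile scaling. By limma, that scaling called 3 of the 8 genes and 0 as lower (0 also at an unadjusted p under 0.05). Leaving out 1 library each gave 4 to 6 of the 8 called, with 1 to 2 higher and 3 to 4 lower. TIMP1 changed sign under TPM (0.12), upper quartile scaling (0.248) and the upper quartile of the genes tested (0.084, an alternative chosen after seeing the data), and without single libraries (-0.09 to 0.064). TIMP3 changed sign under the same scalings, at 0.036, 0.163 and 0.001. MMP14 ranged from -0.008 to 0.059 without single libraries, and it was called higher under the 3 scalings, at 0.15, 0.28 and 0.11. The ratio of PLAU to PLAUR ranged from -0.049 to 0.046 without single libraries.

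Genes called numbered 3138 higher and 1072 lower under TPM, 3935 and 120 under upper quartile scaling, and 2561 and 1444 under the upper quartile of the genes tested. Without a filter 1815 were lower, and with at least 5 FPKM 874 were higher. Leaving out libraries gave 2660 to 3993 called, 852 to 1393 higher and 1808 to 2630 lower. Of the related genes, 13 were called without a filter (4 higher and 9 lower), 5 were higher at 0.1 FPKM and 3 at 5 FPKM, TPM gave 15 higher and 8 lower, upper quartile scaling 17 and 1, and the added scaling 14 higher. Leaving out libraries gave 13 to 22 related genes, 4 to 8 higher and 9 to 14 lower. Same-numbered libraries did not deviate together (correlations of -0.04, -0.035 and -0.101) and were not treated as pairs. With the replicate block 5 related genes were higher. The block changed the call of none of the 8 genes (limma adjusted p = 0.042 for TIMP2 and 0.15 for TIMP3) and ended those of RECK, ADAM9, ADAM10, ADAMTS12, IGF2R and SPINT2. Among related genes, TPM reversed ADAM9 (0.025), and upper quartile scaling reversed ADAM9 (0.151), ADAMTS12 (0.056), ANXA2 (0.032), CSTB (0.008), ENO1 (0.005) and SPINT2 (0.089). The 3 libraries per group limit precision, and changes near 1.3-fold can be missed in low genes with a spread like that of MMP9 (SE 0.15). The SE of the 8 genes was 0.03 to 0.07.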
